A study of Arabidopsis thaliana with 22 samples.

Results

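Blue light for 6 h was compared with 6 h of continued darkness in etiolated (dark-grown) seedlings of Arabidopsis thaliana, the thale cress, across all genes of a deposited RNA-seq count table. The comparison uses 4 of the 22 libraries of the series, chosen by their labels: 2 from seedlings under continuous blue light and 2 from the dark seedlings of the same colour series. Of the 33602 genes in the table, 23011 passed a filter on low counts and were tested. Seedlings of every group were Col-0, the common laboratory accession, with no mutation or transgene named. They had grown for 6 days in darkness on medium with 2% sucrose after a short white light treatment to induce germination. The other groups used below were red light for 6 h, white light for 6 h and blue light for 1 h, each set against 2 dark libraries of its own colour series (6 h dark for the 6 h groups, 0 h for the 1 h group). Each group held 2 libraries made from etiolated seedlings as a whole. The labels do not say whether the 2 libraries came from separate cultures, so p-values measure the spread between these libraries, which may be technical. With RNA of whole seedlings, fewer cells of a type and less RNA per cell cannot be told apart.

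Seedlings germinating under soil lengthen the hypocotyl, keep the cotyledons closed and hold plastids as etioplasts, and light turns this programme into photomorphogenesis. Blue light is read by cryptochromes and phototropins, which carry flavin chromophores, while phytochromes absorb mainly red and far-red light and some blue. Active cryptochromes and phytochromes restrain the COP1-SPA ubiquitin ligase and the PIF transcription factors. Transcription factors such as HY5 then accumulate, and genes for chloroplast assembly and for ultraviolet-screening flavonoids are transcribed.

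Total counts were 59054903 and 138804638 in the blue light libraries, against 41262507 and 56864102 in the dark libraries, within a range of 35000731 to 138804638 over the series. Light libraries were sequenced 2 per pool and dark libraries 4 per pool, so pool size and light cannot be told apart. On the second principal component (9.84% of the variance) the 4 libraries numbered 1 of the blue series stood apart, with scores of 28.2 to 52.4 against at most 14.6 elsewhere, and results that rest on them are given below also without them. The summed level of 12 seed storage genes was 65 and 5.58 CPM (counts scaled to the library size) in the blue light libraries, against 71.4 and 13.1 CPM in the dark libraries, so it followed the library number and not the light. None of these 12 genes passed the test, and neither did any of 4 guard cell markers (summed 27.1 and 23.9 CPM in blue light, 39.9 and 27.1 CPM in darkness). Of 11 root markers, summed at 342 and 304 CPM in blue light against 279 and 282 CPM in darkness, 2 passed as higher and 1 as lower. Of all genes tested 22.8% were higher and 14.6% lower. Among other libraries, EXP18 lost its call without replicate 2 of blue light (log2 change 1.53). SCR lost its call without either blue light library (0.28 and 0.29), and SHR without replicate 1 of blue light (-0.185). The part of seed, root or guard cell RNA in the results was not tested.

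Blue light changed the levels of a large part of the genome's transcripts. At an adjusted p under 0.05 in edgeR's quasi-likelihood test, 8597 genes were called, which is 37.4% of those tested; 5243 (22.8%) were higher and 3354 (14.6%) lower in blue light. Among them 2028 genes (8.81%) rose and 913 (3.97%) fell by at least 2-fold, and 284 (1.23%) rose and 74 (0.322%) fell by at least 8-fold. The median change of all genes tested was 0.03 on the log2 scale, and 15122 genes (65.7%) had blue light libraries that did not overlap the dark ones. The split between directions depends on scaling. With library totals in place of TMM factors the median of all genes moved to -0.12, and 3661 genes were called higher against 5257 lower. Without the blue series libraries numbered 1, 3440 genes were called higher and 1718 lower, and without replicate 1 of blue light alone 2189 were called lower.

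Late anthocyanin genes (DFR, UGT79B1, LDOX and GSTF12) made up 4 of the 10 largest increases among called genes with a mean of at least 10 CPM in the higher group and no overlap between the groups. Rarer transcripts, some with no count in darkness, had larger fitted changes and are not ranked here. DFR (dihydroflavonol reductase) had 151 and 66.8 CPM in blue light, against 0.265 and 0.485 CPM in darkness. LDOX (leucoanthocyanidin dioxygenase) had 154 and 78.0 CPM in blue light, against 0.241 and 0.658 CPM in darkness. UGT79B1, an anthocyanin glycosyltransferase, had 64.5 and 29.7 CPM in blue light, against 0.0963 and 0.260 CPM in darkness. All 3 enzymes act late in anthocyanin synthesis and were close to the limit of detection in the dark. MSRB6 (methionine sulfoxide reductase B6) rose by 7.73 ± 0.38 (log2 change ± standard error) and was under 1 CPM in both dark libraries. The putative phosphoglucomutase gene AT1G70820, the TRAF-like gene AT3G28220, the thionin gene THI2.2 and AT1G26761 also belonged to the 10 largest increases, each with over 19 CPM in both blue light libraries and under 0.3 CPM in both dark ones.

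At the other end, the B-box factor BBX23 had 0.164 and 0.0565 CPM in blue light, against 29.6 and 14.4 CPM in darkness, a fall of 7.86 ± 0.83 on the log2 scale. GRF7, a growth-regulating factor, had 1.31 and 1.94 CPM in blue light, against 123 and 56.6 CPM in darkness. PORA, the protochlorophyllide reductase of etioplasts, had 21.9 and 23.7 CPM in blue light, against 1094 and 558 CPM in darkness. These 3 transcripts were abundant in dark seedlings and nearly gone or strongly reduced after 6 h of blue light. XTH15, a xyloglucan endotransglucosylase of the cell wall, fell 16.2-fold to 94.9 and 78.8 CPM in blue light, against 1675 and 1146 CPM in darkness. The tonoplast aquaporin gene BETA-TIP fell by 4.37 ± 0.79 and the cytochrome P450 gene CYP96A5 by 4.78 ± 0.64 on the log2 scale. The CAP160 protein gene AT4G25580 had 3.66 and 8.48 CPM in blue light, against 85.9 and 235 CPM in darkness.

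**Figure D1:**
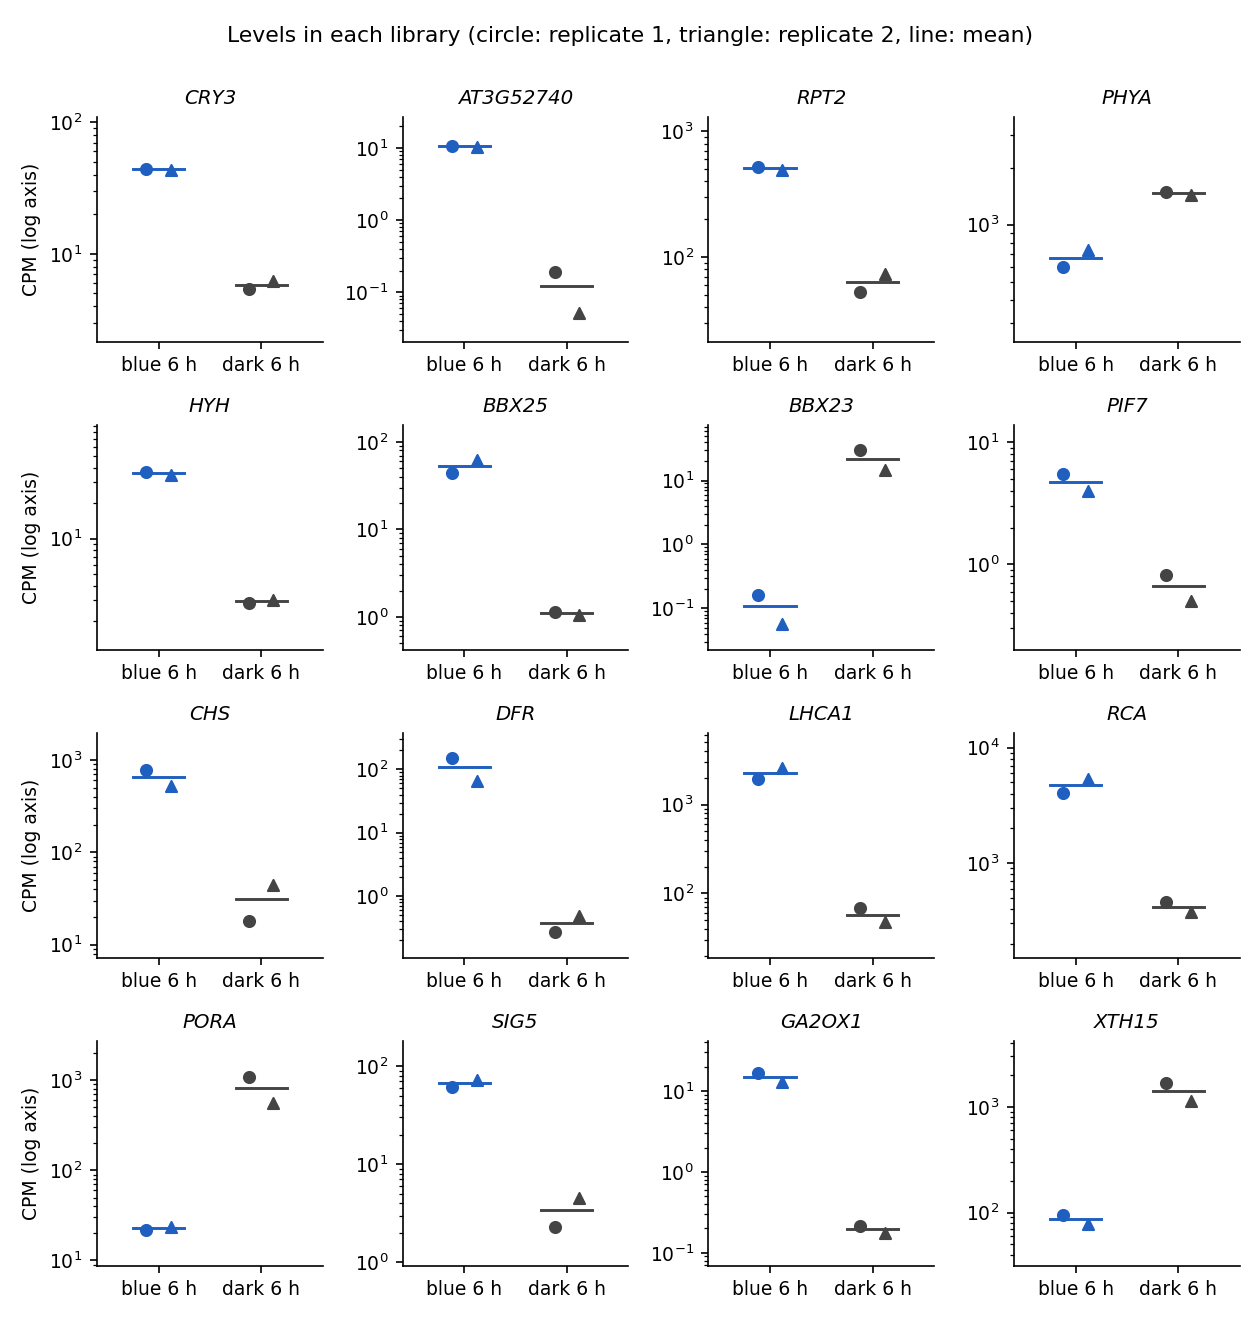
Level in CPM (log axis, own range in each panel) of 16 genes in each blue light library (left) and each 6 h dark library (right); circles are replicate 1, triangles replicate 2 and lines the group mean. In every panel the blue light and dark libraries do not overlap, which also holds for 65.7% of all genes tested. The 16 genes are picked examples. PHYA, BBX23, PORA and XTH15 are lower in blue light and the other 12 genes are higher.

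Light-responsive promoters often carry a G-box, bound in Arabidopsis by HY5 and PIF proteins among others, or an I-box. Of the windows of these 10 largest increases 4 held at least 1 of these motifs and 6, LDOX, MSRB6 and GSTF12 among them, held neither; of those of the 10 largest decreases, ranked with the same limits, 2 did and 8, BBX23, GRF7 and XTH15 among them, did not. The 7 windows below, from genes that rose and genes that fell, show where the motifs stand; all 7 hold one, so they are no sample of the called genes. Each window is the 250 bases before the annotated gene start in RefSeq's TAIR10.1 genome, printed 5′ to 3′ on the gene's strand, with the G-box (CACGTG) and the I-box core (GATAAG, or CTTATC on the other strand) in capitals. The windows are DFR at chr5:17166033-17166282 (minus strand), UGT79B1 at chr5:21938397-21938646 (minus), CHS at chr5:4488226-4488475 (plus), LHCA1 at chr3:20341177-20341426 (minus), PSAH2 at chr1:19454548-19454797 (plus), PORA at chr5:21992815-21993064 (minus) and AT4G25580 at chr4:13055933-13056182 (plus).
DFR: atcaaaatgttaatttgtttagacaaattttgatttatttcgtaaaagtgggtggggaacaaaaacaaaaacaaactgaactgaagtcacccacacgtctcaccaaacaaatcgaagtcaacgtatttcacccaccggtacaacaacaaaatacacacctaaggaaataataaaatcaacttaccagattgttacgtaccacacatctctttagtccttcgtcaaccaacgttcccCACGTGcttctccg
UGT79B1: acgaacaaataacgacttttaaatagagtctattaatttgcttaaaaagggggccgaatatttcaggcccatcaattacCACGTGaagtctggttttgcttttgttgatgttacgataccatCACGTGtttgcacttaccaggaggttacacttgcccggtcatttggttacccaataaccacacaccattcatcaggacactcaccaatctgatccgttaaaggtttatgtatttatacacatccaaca
CHS: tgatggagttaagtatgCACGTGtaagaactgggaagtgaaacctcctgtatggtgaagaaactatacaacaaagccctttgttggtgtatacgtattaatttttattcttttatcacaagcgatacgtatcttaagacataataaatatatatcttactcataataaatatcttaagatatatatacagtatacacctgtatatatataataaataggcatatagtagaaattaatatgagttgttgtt
LHCA1: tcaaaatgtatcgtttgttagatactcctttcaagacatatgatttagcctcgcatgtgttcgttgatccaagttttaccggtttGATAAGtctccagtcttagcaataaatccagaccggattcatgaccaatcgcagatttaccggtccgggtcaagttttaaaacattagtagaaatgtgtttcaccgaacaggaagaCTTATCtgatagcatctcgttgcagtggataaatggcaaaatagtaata
PSAH2: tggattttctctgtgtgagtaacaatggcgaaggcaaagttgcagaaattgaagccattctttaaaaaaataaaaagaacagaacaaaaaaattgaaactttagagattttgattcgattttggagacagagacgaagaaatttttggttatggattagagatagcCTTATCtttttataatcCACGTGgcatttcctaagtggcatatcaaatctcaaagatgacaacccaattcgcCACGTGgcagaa
PORA: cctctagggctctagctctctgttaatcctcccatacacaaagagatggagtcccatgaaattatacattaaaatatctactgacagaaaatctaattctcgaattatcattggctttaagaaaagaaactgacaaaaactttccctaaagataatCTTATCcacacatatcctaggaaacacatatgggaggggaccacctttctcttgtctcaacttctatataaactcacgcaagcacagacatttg
AT4G25580: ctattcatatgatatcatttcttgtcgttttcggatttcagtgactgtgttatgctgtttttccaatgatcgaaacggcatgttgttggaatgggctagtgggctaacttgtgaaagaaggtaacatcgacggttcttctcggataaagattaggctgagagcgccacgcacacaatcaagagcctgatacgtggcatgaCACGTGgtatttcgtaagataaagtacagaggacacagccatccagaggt
The G-box stood once in the windows of DFR, CHS and AT4G25580 and in 2 places in those of UGT79B1 and PSAH2, so it occurred before genes that rose and before 1 that fell. The I-box core stood in 2 places in LHCA1 and in 1 place each in PSAH2 and PORA. Over all tested genes with a window (22843), 12.4% held the I-box core and 7.20% the G-box. Among genes that rose at least 8-fold the shares were 19.0% for the I-box core and 10.6% for the G-box (54 and 30 of 284 windows), and among those that fell at least 8-fold they were 9.46% and 6.76% (7 and 5 of 74 windows). Among all genes called higher (5233 windows) the shares, 12.7% and 7.72%, were close to those of all genes. The site II element (TGGGCC on either strand) ran another way, with 19.2% of windows of all genes called higher, 9.51% of those at least 8-fold higher, 13.8% of those called lower and 15.4% of all tested genes. In the nearest 150 bases all genes held the I-box core in 7.70% and the G-box in 5.38% of windows, and genes at least 8-fold higher in 13.4% and 9.51%. These shares describe letters in the windows, with no test.

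Among the blue light photoreceptors, 4 of 8 genes rose and 2 fell, beside 22.8% higher and 14.6% lower of all genes tested. The median log2 change of this list was 0.24. CRY1 and CRY2, the cryptochromes that control hypocotyl growth and flowering, did not pass the test. CRY1 had 163 and 181 CPM in blue light against 169 and 155 CPM in darkness, and CRY2 had 266 and 309 CPM in blue light against 266 and 279 CPM in darkness. Their changes were 0.08 ± 0.10 for CRY1 and 0.08 ± 0.09 for CRY2 on the log2 scale, and both signs turned with library totals. CRY3, a cryptochrome of the organelles, had 43.8 and 43.6 CPM in blue light, against 5.39 and 6.24 CPM in darkness, and rose by 2.91 ± 0.25 (edgeR adjusted p = 1.24e-06). The flavin-binding F-box gene FKF1, which acts in photoperiodic flowering, rose 3.17-fold to 21.4 and 21.7 CPM in blue light, against 6.55 and 7.05 CPM in darkness. The phototropins, which steer bending towards light and chloroplast movement, went apart. PHOT2 had 274 and 230 CPM in blue light against 138 and 90.09 CPM in darkness, and PHOT1 had 446 and 375 CPM in blue light against 646 and 459 CPM in darkness. Both were called, PHOT2 as higher and PHOT1 as lower, but neither call held without every library. PHOT2 lost it without replicate 1 of blue light (1.01) or replicate 2 of darkness (0.87). PHOT1 lost it without replicate 2 of blue light (-0.31), replicate 1 of darkness (-0.19) or the libraries numbered 1 (-0.29). Small changes of ZTL (0.40) and LKP2 (-0.38) were also called. ZTL lost its call without replicate 2 of blue light (0.25), replicate 1 of darkness (0.26) or the libraries numbered 1 (0.43), and with library totals (0.25). LKP2 lost its call without replicate 1 of blue light (-0.30), replicate 2 of darkness (-0.29) or the libraries numbered 1 (-0.38).

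Of 16 genes that act with cryptochromes and phototropins 11 rose and 1 fell, beside 22.8% higher and 14.6% lower of all genes tested. Their median change was 2.02. RPT2, a phototropin signalling protein of the NPH3 family, had 521 and 492 CPM in blue light, against 53.2 and 73.8 CPM in darkness. NPH3 itself, needed for phototropism, had 78.6 and 84.6 CPM in blue light and 83.9 and 67.4 CPM in darkness and did not pass the test (0.11 ± 0.12). TZP, a nuclear zinc finger protein of light signalling, rose 10.3-fold (adjusted p = 1.87e-07). AT3G52740 had 10.7 and 10.2 CPM in blue light, against 0.193 and 0.0520 CPM in darkness, and AT3G44450 had 4.23 and 3.32 CPM in blue light, against 0.0722 and 0.121 CPM in darkness. In the fixed set of light signalling genes these loci stand for BIC1 and BIC2, though the reference gives neither of them a product name. Both were close to undetected in darkness. Genes of chloroplast movement rose as well: KAC1, a kinesin-like protein, by 2.09 ± 0.16, PMI2 by 2.43 ± 0.30, JAC1, a J-domain protein, by 1.95 ± 0.21 and CHUP1, which ties chloroplasts to actin, by 1.45 ± 0.17. The 1 member that fell, CIB1, was under 3 CPM in every library and was not called without replicate 1 of blue light (-0.66), replicate 1 of darkness (-0.75) or the libraries numbered 1 (-0.21).

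Red light receptors and their import factors held 3 of 10 genes that were higher and 3 that were lower, beside 22.8% and 14.6% of all genes tested. PHYA, the phytochrome that accumulates in darkness, had 600 and 731 CPM in blue light, against 1491 and 1440 CPM in darkness. FHY1 and FHL, which carry phyA into the nucleus, fell with it, by 1.31 ± 0.17 and 2.42 ± 0.23 on the log2 scale. PHYB, the main red light receptor of green plants, had 229 and 220 CPM in blue light, against 138 and 134 CPM in darkness. Its rise of 0.72 ± 0.08 passed the test (adjusted p = 5.95e-06). PHYC, PHYD, FHY3 and the ultraviolet-B receptor gene UVR8 stayed within 0.13 of 0 on the log2 scale and did not pass. The increases of PHYE and FAR1 were 0.39 and 0.28 on the log2 scale, and neither was called when any 1 of the 4 libraries was left out (0.32 to 0.42 for PHYE, 0.22 to 0.34 for FAR1).

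Every gene of the list of photomorphogenesis repressors, 8 of 8, was higher in blue light, with a median of 1.95. SPA1, a partner of COP1 in the ubiquitin ligase, had 214 and 213 CPM in blue light, against 35.8 and 40.0 CPM in darkness. SPA3 rose 4.3-fold and SPA4 3.60-fold, while COP1 rose by 0.88 ± 0.10. RUP2, a repressor of UVR8 signalling, had 29.8 and 44.2 CPM in blue light, against 1.56 and 2.25 CPM in darkness. The increases of SPA2 and DET1 were small, 0.30 and 0.28 on the log2 scale. SPA2 was not called without replicate 1 of blue light (0.22), either dark library (0.23 and 0.35) or the libraries numbered 1 (0.18), nor with library totals (0.15). DET1 was not called without replicate 1 of blue light (0.18), replicate 2 of darkness (0.17) or the libraries numbered 1 (0.30), nor with library totals (0.13).

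Of 21 HY5, B-box, GLK and GATA transcription factors, among which are both promoters and repressors of light responses, 13 rose and 4 fell (2 without replicate 1 of darkness), with a median of 1.64. HYH, a homologue of HY5, had 36.7 and 34.7 CPM in blue light, against 2.86 and 3.0 CPM in darkness. HY5, the bZIP factor that binds G-boxes, had 56.8 and 54.5 CPM in blue light, against 25.9 and 37.1 CPM in darkness. Its groups did not overlap and its increase of 0.82 ± 0.22 passed (adjusted p = 0.00895), but not without replicate 1 of darkness (0.56) or the libraries numbered 1 (0.56). The B-box (BBX) zinc finger family was split by member. BBX25, a repressor of light responses in Arabidopsis, had 44.4 and 62.7 CPM in blue light, against 1.13 and 1.06 CPM in darkness. BBX24 and BBX18, also known as repressors, rose 3.69-fold and 7.89-fold, and BBX22, which promotes light responses, rose 7.48-fold. BBX16 was listed at 0 in both dark libraries and had 0.674 and 1.24 CPM in blue light. BBX21, a promoter of light responses, fell by 0.94 ± 0.10, and BBX23, described above, fell the most of all genes named by size. GATA22, a GATA factor of greening, had 16.3 and 17.9 CPM in blue light, against 0.120 and 0.312 CPM in darkness. GLK2, an activator of photosynthesis genes, rose 3.12-fold. HFR1, a bHLH protein that restrains PIFs, had 73.0 and 85.5 CPM in blue light and 76.4 and 95 CPM in darkness and did not pass.

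PIF and shade response factors fell more often than they rose, 12 against 4 of 19, with a median of -0.88. Without the libraries numbered 1, 7 were called lower. HB-2 (ATHB2), an HD-ZIP factor and shade marker, had 11.6 and 12.0 CPM in blue light, against 37.0 and 37.4 CPM in darkness. HAT2 and HAT3 of the same family fell by 0.92 ± 0.13 and 0.94 ± 0.15 on the log2 scale. Among the PIFs, PIF3 and PIF6 fell by 0.87 ± 0.17 and 0.90 ± 0.18. PIF7 had 5.52 and 3.97 CPM in blue light, against 0.818 and 0.502 CPM in darkness, and UNE10 (PIF8) rose 5.78-fold. PIF1 and PIF4, with changes of 0.27 ± 0.12 and 0.25 ± 0.18, did not pass. PIF3 was not called without the libraries numbered 1 (-0.56).

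Of 22 clock genes 7 were higher and 4 lower, counts near the shares of all genes tested (22.8% higher, 14.6% lower). The number called lower was 2 without either blue light library or replicate 2 of darkness, and 1 without the libraries numbered 1. The evening complex gene ELF4 had 77.0 and 60.4 CPM in blue light, against 2.70 and 3.14 CPM in darkness, and rose 23.4-fold. PRR5 rose by 1.95 ± 0.18 and GI by 1.45 ± 0.18. The morning gene LHY had 18 and 18.1 CPM in blue light, against 85.1 and 102 CPM in darkness, a fall of 2.38 ± 0.61 that was not called without the libraries numbered 1 (-2.50). Its partner CCA1 had 32.2 and 38 CPM in blue light and 68.4 and 89.3 CPM in darkness, which did not overlap but did not pass (adjusted p = 0.0798). TOC1, ELF3 and PRR7 did not pass either.

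Flavonoid synthesis genes rose together. Of 21 enzymes and transport proteins tested, 18 were higher and none lower, with a median of 4.49. CHS (chalcone synthase), the entry enzyme, had 783 and 524 CPM in blue light, against 18.1 and 43.8 CPM in darkness. CHIL, which helps chalcone synthase act cleanly, rose by 4.49 ± 0.30 and CHI (chalcone isomerase) by 2.67 ± 0.24. FLS1, the flavonol synthase, had 90.8 and 45.6 CPM in blue light, against 1.54 and 2.70 CPM in darkness. The glycosyltransferase gene UGT78D2 rose 19.0-fold, the malonyltransferase gene 5MAT 82.0-fold and GSTF12, a glutathione transferase needed for anthocyanin transport into the vacuole, 82.1-fold. Of the general phenylpropanoid pathway, PAL1 had 592 and 388 CPM in blue light and 346 and 375 CPM in darkness and did not pass. The 4CL1 gene did not pass either (-0.15 ± 0.18). PAL2 (0.68) and C4H (0.55) were called higher, but neither without the libraries numbered 1 (0.44 and 0.29). C4H was also not called without replicate 1 of blue light (0.47) or of darkness (0.34), nor with library totals (0.40). In CHS, DFR, LDOX and FLS1 alike, replicate 1 of blue light was above replicate 2, and both were above the dark libraries.

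Of 10 flavonoid regulators tested, 8 rose and none fell, with a median of 1.64. MYB12, an activator of flavonol genes, had 11.5 and 7.05 CPM in blue light, against 0.361 and 0.225 CPM in darkness. TT8, a bHLH partner of anthocyanin MYBs, had 6.14 and 2.69 CPM in blue light, against 0.0963 and 0.260 CPM in darkness. PAP1, the anthocyanin MYB, rose by 1.69 ± 0.32 but was not called without the libraries numbered 1 (1.24). The number of regulators called was 4 without those libraries, and 5 without replicate 1 of blue light or without replicate 2 of darkness.

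Genes for the photosynthetic apparatus rose almost without exception. Of 21 light-harvesting and related genes 20 were higher (median 3.26), as were 29 of 29 nuclear genes for photosystem cores and electron transport (median 2.72). LHCA1, an antenna protein of photosystem I, had 1933 and 2553 CPM in blue light, against 68.2 and 47.5 CPM in darkness, a 38.8-fold rise. LHCB2.2 of the main antenna rose 35.3-fold, LHCA4 by 3.34 ± 0.35 and PSBS, which dissipates excess light energy, by 3.26 ± 0.37. The member that did not pass, LHCB1.3, had 4064 and 7033 CPM in blue light and 4072 and 1927 CPM in darkness. LHCB1 and LHCB2 genes have near-identical copies, and how reads shared between them were counted is not given in the sources used here, so their single values are uncertain. In the photosystem I core, PSAN had 638 and 806 CPM in blue light, against 45.3 and 48.4 CPM in darkness, and PSAH2 rose 18.8-fold. The ferredoxin gene FD2, with 1425 and 1771 CPM in blue light, rose 8.01-fold. The smallest rise among the 29 was that of PSAE2, 1.29 ± 0.33, which was not called without replicate 2 of blue light (0.85) or replicate 1 of darkness (1.17).

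**Figure D2:**
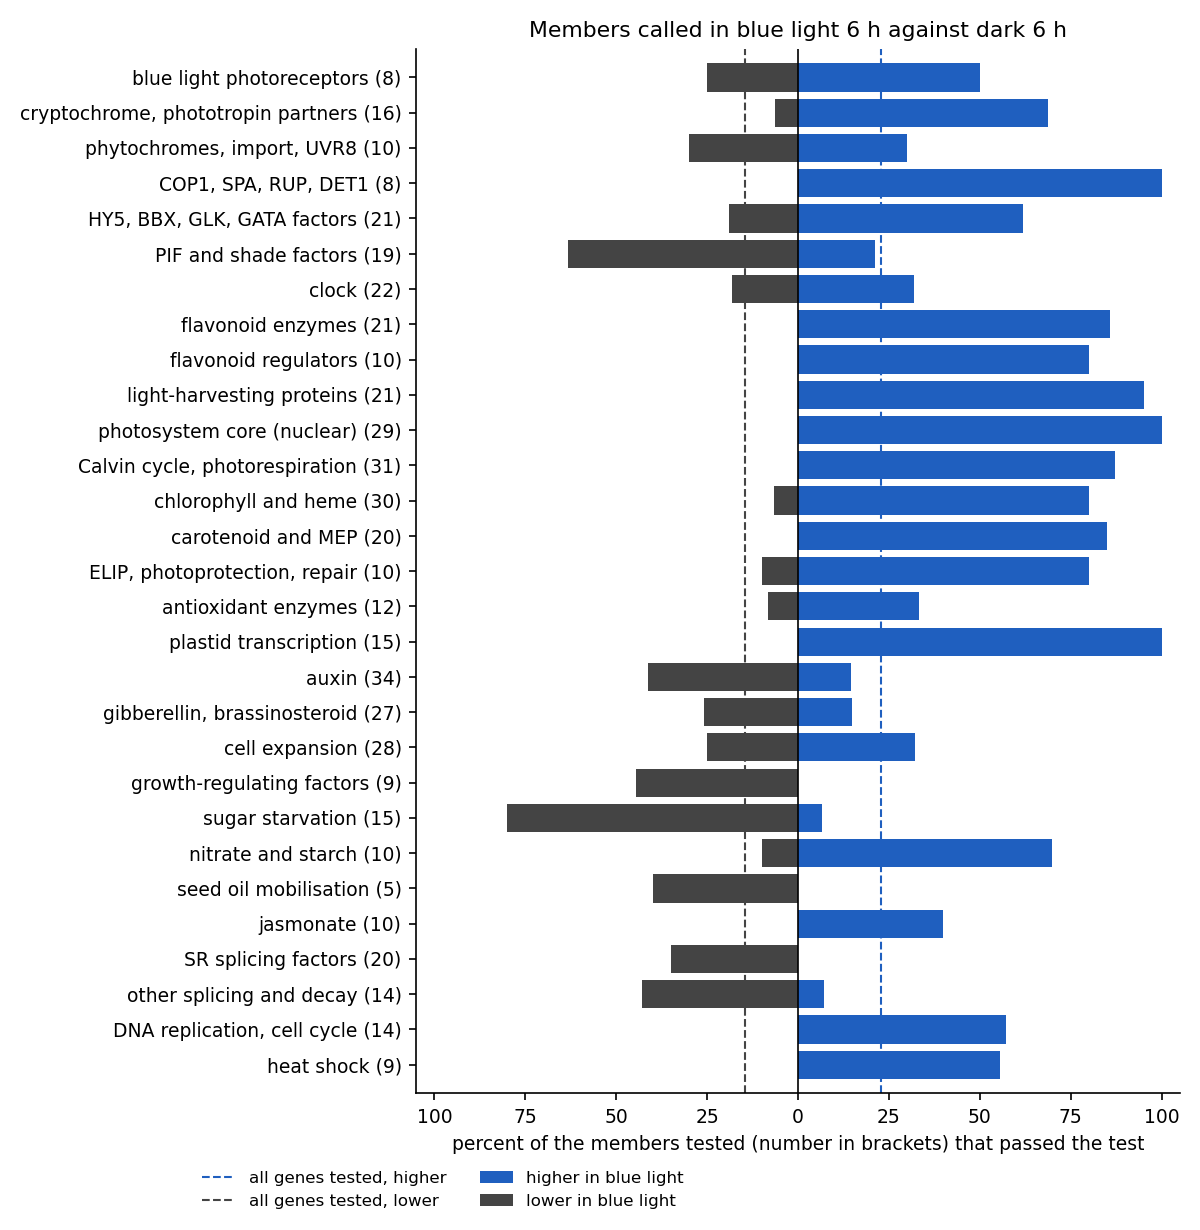
Share of the members tested in each gene list (number in brackets) that passed the test as higher (blue bars, right) or lower (grey bars, left) in blue light; dashed lines mark the same shares of all genes tested, 22.8% higher and 14.6% lower. The photosystem core, plastid transcription and COP1, SPA, RUP, DET1 lists reach 100% higher, and the longest grey bar, 12 of 15 in the sugar starvation list, rests on single libraries (4 of 15 without replicate 1 of blue light, replicate 2 of darkness or the libraries numbered 1).

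Carbon fixation and photorespiration followed, with 27 of 31 enzymes higher, none lower and a median of 2.05. RCA (Rubisco activase) had 4043 and 5370 CPM in blue light, against 458 and 377 CPM in darkness. CP12-2, a regulatory protein of the Calvin cycle, rose 19.0-fold and the glyceraldehyde-phosphate dehydrogenase gene GAPA-2 10.9-fold. Of the photorespiratory genes, SHM1 (serine hydroxymethyltransferase) had 917 and 1023 CPM in blue light, against 110 and 92.9 CPM in darkness. The peroxisomal genes GOX1, GOX2, GGAT1 and HPR1 rose by 2.13 to 2.67 on the log2 scale, whereas AGT1, another peroxisomal aminotransferase gene, did not pass (0.64 ± 0.37). RBCS1A, a Rubisco small subunit gene with close copies, had 5888 and 7043 CPM in blue light against 3837 and 2323 CPM in darkness, and was not called without replicate 1 of blue light (1.19), replicate 2 of blue light (0.94), replicate 2 of darkness (0.75) or the libraries numbered 1 (1.6).

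Chlorophyll and heme synthesis rose in 24 of 30 genes and fell in 2, with a median of 1.26. HEMA1, which makes the precursor aminolevulinate at the regulated first step, had 421 and 532 CPM in blue light, against 124 and 123 CPM in darkness. Magnesium chelatase genes rose, CHLI1 by 2.55 ± 0.29 and GUN5 (the CHLH subunit) by 2.36 ± 0.38, as did GUN4, the activator of that enzyme, by 2.68 ± 0.41. CAO, which makes chlorophyll b, rose 4.95-fold (adjusted p = 7.22e-07). The 3 protochlorophyllide reductases differed. PORA fell 36.2-fold, while PORC, which is active in green tissue, had 108 and 128 CPM in blue light, against 26.8 and 20.1 CPM in darkness. PORB had 476 and 478 CPM in blue light against 1319 and 599 CPM in darkness and did not pass (adjusted p = 0.131). HEMA2, the second aminolevulinate gene, fell by 0.39 ± 0.07.

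Of 20 carotenoid and plastid isoprenoid genes, 17 rose and none fell (median 1.06). PSY, the phytoene synthase at the head of the carotenoid pathway, had 273 and 314 CPM in blue light, against 63.8 and 63.7 CPM in darkness. CYP97A3, a carotene hydroxylase, rose 11.2-fold. Of 10 photoprotection and repair genes 8 rose and 1 fell. ELIP1, an early light-induced protein, had 299 and 280 CPM in blue light, against 10.8 and 34.9 CPM in darkness. The photolyase gene PHR1, whose product repairs ultraviolet damage using blue light, had 13 and 12.4 CPM in blue light, against 1.04 and 1.4 CPM in darkness. LIL3:2 fell by 1.82 ± 0.38 while LIL3:1, the other gene of this light-harvesting-like pair, rose by 1.68 ± 0.34; without the libraries numbered 1 LIL3:2 was not called (-1.46). Among 12 antioxidant enzymes 4 rose and 1 fell, counts nearer to the shares of all genes (2 rose without the libraries numbered 1); SAPX, a stromal ascorbate peroxidase, rose by 0.82 ± 0.09.

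All 15 nuclear genes of the plastid transcription machinery rose, with a median of 1.17. SIG5, a light-induced sigma factor, had 61.7 and 72.1 CPM in blue light, against 2.31 and 4.56 CPM in darkness. SIG2 rose by 1.74 ± 0.19 and SIG1 by 1.3 ± 0.25, and PTAC6 and PTAC12, subunits bound to the plastid polymerase, by 1.35 ± 0.17 and 1.38 ± 0.21. Of the plastid's own genes, 133 in the table, 39 passed the filter. These had a median of -0.67, with none called higher and 1 lower. That gene, ATCG00340 (-1.34), was not called without replicate 2 of blue light (-1.09) or replicate 2 of darkness (-0.84), while 7 plastid genes were called lower without replicate 1 of blue light, 3 without the libraries numbered 1 and none with the 4 libraries fitted alone. The share of counts from plastid genes was 0.100% and 0.0390% in the blue light libraries, against 0.145% and 0.0934% in the dark libraries. The mitochondrial share was 0.0940% and 0.0294% in blue light, against 0.125% and 0.0841% in darkness. Neither differed in a two-sided exact permutation test (p = 0.667 each), which cannot go below 0.33 with 2 libraries a group. The median of the plastid genes thus rests on at most 0.145% of the counts of a library. How far the libraries captured plastid RNA was not tested.

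**Figure D3:**
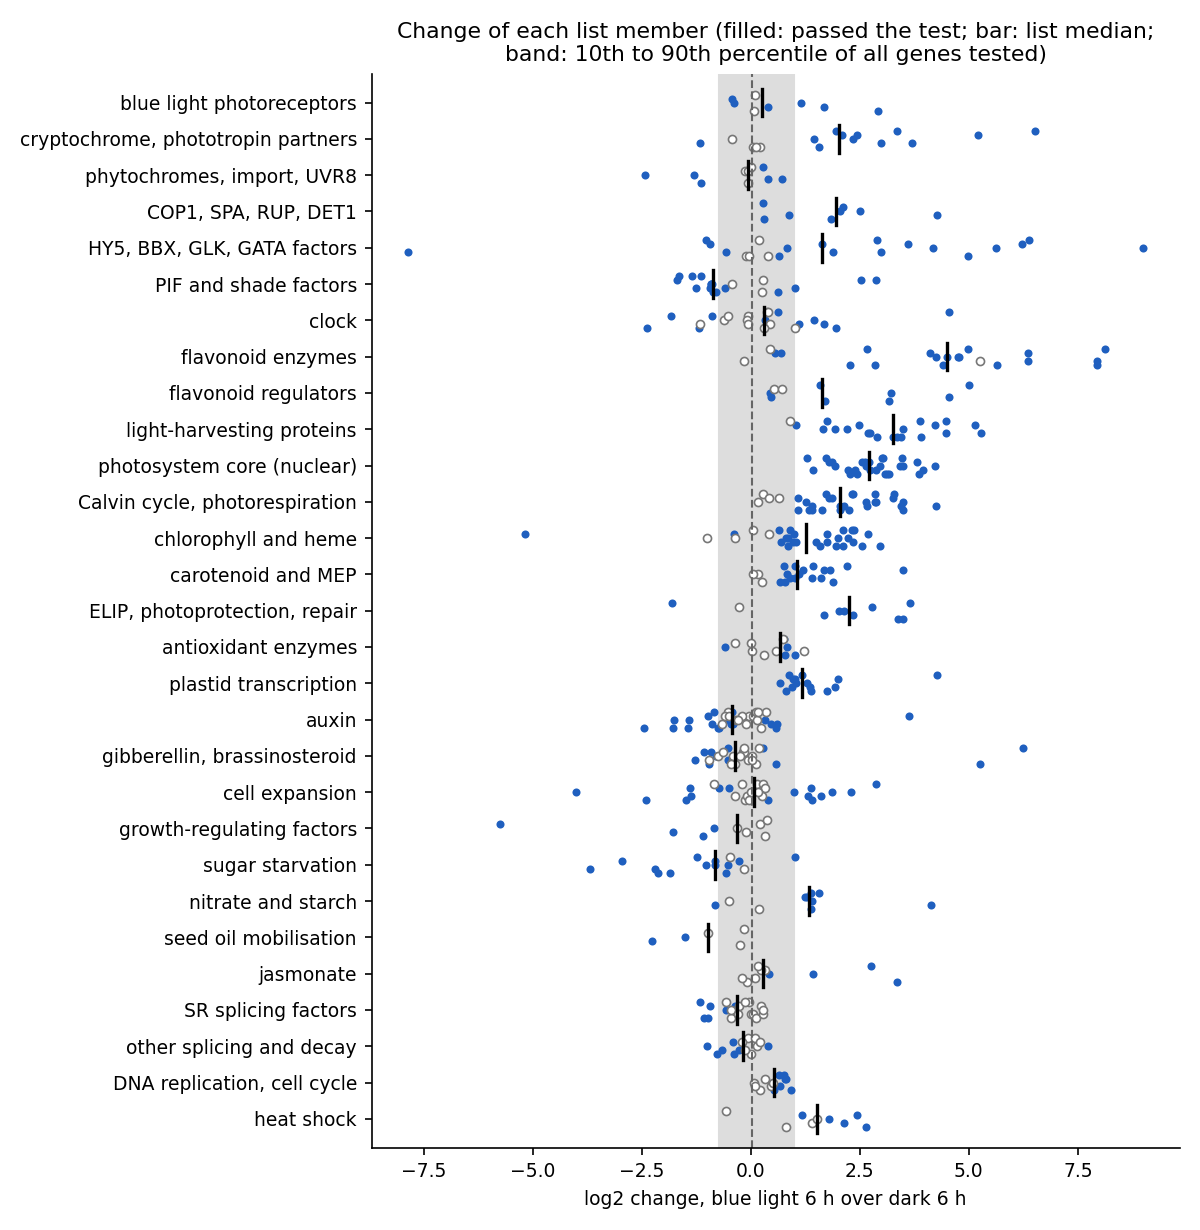
Log2 change (blue light 6 h over dark 6 h) of each list member; filled points passed the test, open points did not, black bars are list medians, the dashed line is the median of all genes tested and the grey band spans their 10th to 90th percentile. Members of the photosynthesis and flavonoid enzyme lists lie almost wholly right of 0, and the isolated points at the left are BBX23, GRF7, PORA and XTH15.

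Auxin genes were lower more often than higher. Of 34 auxin genes 14 were lower and 5 higher, beside 14.6% lower and 22.8% higher of all genes tested, with a median of -0.43. IAA29, an Aux/IAA repressor gene, had 4.38 and 3.01 CPM in blue light, against 13.4 and 11.7 CPM in darkness. IAA19 had 13 and 30.6 CPM in blue light, against 80.8 and 68.6 CPM in darkness, and GH3.5, whose product conjugates auxin to amino acids, fell by 0.97 ± 0.18; without the libraries numbered 1 their changes were -1.16 and -0.64 and still called. SAUR14, of a family of small growth-promoting proteins, rose 12.3-fold to 53.0 and 42.4 CPM in blue light, against 3.88 and 3.86 CPM in darkness. Of the growth-related genes SAUR19 to SAUR24, a cluster with close copies, SAUR19, SAUR22 and SAUR23 passed as lower. None of these 3 was called without replicate 1 of blue light (-0.54 to -0.65) or without the libraries numbered 1 (-0.48 to -0.61). The number of auxin genes called higher was 2 without either blue light library or replicate 2 of darkness. The number called lower was 5 without the libraries numbered 1, 6 without replicate 1 of blue light and 7 without replicate 1 of darkness.

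Of 27 gibberellin and brassinosteroid genes 4 rose and 7 fell, beside 22.8% higher and 14.6% lower of all genes tested. With library totals 2 rose and 15 fell, a setting that called 3661 of all genes tested higher and 5257 lower. Fewer of the list were called higher without replicate 1 of darkness. GA2OX1, which inactivates gibberellins, had 16.6 and 13.1 CPM in blue light, against 0.217 and 0.173 CPM in darkness, a 76.3-fold rise (adjusted p = 7.34e-09). GA3OX2, of the last step of gibberellin synthesis, also rose, to 4.92 and 3.79 CPM in blue light, against 0.120 and 0.104 CPM in darkness. CPD, a brassinosteroid synthesis gene, had 123 and 138 CPM in blue light, against 305 and 328 CPM in darkness. In the list of cell expansion genes 9 of 28 rose (4 with the 4 libraries fitted alone) and 7 fell, beside 22.8% and 14.6% of all genes tested, and the list median of 0.07 lies within the shift that scaling alone makes. EXPA1, an expansin, had 359 and 782 CPM in blue light, against 69.0 and 86.2 CPM in darkness, while XTH19 fell 5.34-fold. Of 9 growth-regulating factors 4 fell and none rose (GRF7 is described above), with 2 lower without replicate 1 of darkness or the libraries numbered 1 and 1 with the 4 libraries fitted alone. GRF8 fell by 1.79 ± 0.34 on the log2 scale (-1.17 without the libraries numbered 1) and was not called with the 4 libraries fitted alone (-1.87, edgeR adjusted p = 0.0522). The calls of GRF2 and GRF6 were lost without replicate 1 of darkness (-0.43 and -0.66), among other libraries.

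Most genes that mark carbon starvation were lower in blue light, and most of a nitrate and starch list were higher. Of 15 starvation genes 12 fell and 1 rose, with a median of -0.82. BCAT2, a branched-chain amino acid transaminase, had 11.3 and 23.8 CPM in blue light, against 160 and 293 CPM in darkness. SEN1, a dark-inducible gene, had 16.7 and 52.2 CPM in blue light, against 259 and 281 CPM in darkness. MCCA and IVD of leucine breakdown fell by 1.87 ± 0.33 and 1.23 ± 0.22. Many of the other calls depended on single libraries, since 4 genes were called lower without replicate 1 of blue light, without replicate 2 of darkness or without the libraries numbered 1, and 4 with the 4 libraries fitted alone. Of 10 nitrate and starch genes 7 rose and 1 fell, with a median of 1.33. The nitrate transporter gene NRT1.1 fell by 0.83 ± 0.20, with 264 and 242 CPM in blue light against 532 and 367 CPM in darkness, and was not called without replicate 1 of darkness (-0.56) or the libraries numbered 1 (-0.60). Nitrate reductase genes NIA1 and NIA2 rose by 1.56 ± 0.19 and 1.28 ± 0.22, and BAM3, a starch-degrading amylase of chloroplasts, had 42.3 and 40.4 CPM in blue light, against 1.93 and 2.72 CPM in darkness. ICL and PCK1, which turn seed oil into sugar, fell by 2.27 ± 0.30 and 1.5 ± 0.14, and the other 3 of 5 genes of that list did not pass.

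Among the remaining lists, set beside 22.8% of all genes tested called higher and 14.6% lower, splicing factors leaned lower. Of 20 SR protein genes 7 fell and none rose. With library totals 12 of them were lower, a setting that called 5257 of all genes tested lower. RS40 had 68.1 and 75.3 CPM in blue light, against 140 and 142 CPM in darkness. Of 14 other splicing and RNA decay genes 6 fell and 1 rose, including U2AF65A, which recognises the 3′ splice site, with 121 and 114 CPM in blue light, against 229 and 247 CPM in darkness. The number of these called lower was 2 without replicate 1 of blue light or without replicate 2 of darkness. Of 10 jasmonate genes 4 rose and none fell, led by LOX2, with 15.3 and 4.88 CPM in blue light, against 0.361 and 1.54 CPM in darkness; its change was 1.66 without the libraries numbered 1, and it was not called with the 4 libraries fitted alone (3.304, edgeR adjusted p = 0.0541). Without replicate 1 of darkness 2 jasmonate genes were called. Of 14 DNA replication and cell cycle genes 8 rose and none fell (median 0.52), but none was called without replicate 1 of blue light or without replicate 2 of darkness, and 1 without the libraries numbered 1. Of 9 heat shock genes 5 rose, with sums of 400 and 340 CPM in blue light, against 83.5 and 160 CPM in darkness. That count was 1 without replicate 1 of darkness, 2 without replicate 2 of blue light, 3 without replicate 2 of darkness and none without the libraries numbered 1.

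The response to blue light was set against that to red light by the difference of the 2 changes, each over its own dark libraries. Over its own dark libraries red light called 27.7% of genes and white light 41.6%. The test of the difference was passed by 22 genes (0.0956%), 21 (0.0913%) with the larger value in blue light and 1 (0.00435%) in red. The last, AT4G21730 (-1.96, adjusted p = 0.0313), had means under 3 CPM in blue light and its dark libraries and was named after its values were seen. An unadjusted p under 0.05 was reached by 1460 genes (6.34%). In simulated counts this test found 31% of log2 differences of 1 and 94% of those of 2, so small differences can be missed. With 200 genes changed, it also made 10 false calls. The shade factor gene PIL1 had 18 and 13 CPM in blue light and 1.83 and 2.05 CPM in red light, against 34.4 and 23.9 CPM and 26.6 and 26.2 CPM in their dark libraries. It thus fell by 0.91 ± 0.19 in blue light and by 3.76 in red light, a difference of 2.85 ± 0.28 (adjusted p = 0.000578). GA2OX1 had 16.6 and 13.1 CPM in blue light and 2.59 and 1.81 CPM in red light, against about 0.2 CPM in both sets of dark libraries, a difference of 2.91 ± 0.44. PHYB did not pass in red light (-0.02), and its change differed by 0.75 ± 0.11. Further genes with a larger value in blue light were SQE3 (squalene epoxidase, 1.71 ± 0.22), SAHH2 (S-adenosylhomocysteine hydrolase, 1.68 ± 0.27), the chorismate mutase gene CM1 (0.90 ± 0.14) and AT1G13670 (1.79 ± 0.20). Named after their values were seen, BBX22 (1.38) and the light-harvesting-like gene SEP2 (1.39) were the list members called besides PHYB, PIL1 and GA2OX1. Calls of PIL1 and AT1G13670 held without each of the 8 libraries in turn, but those of GA2OX1, SQE3, SAHH2, PHYB and CM1 were each lost without replicate 1 of the blue series' 6 h dark, without replicate 2 of the red series' 6 h dark or without the blue libraries numbered 1. All of these but SQE3 also lost the call without replicate 1 of blue light or replicate 1 of red 6 h dark, and all but GA2OX1 without replicate 1 of red light. GA2OX1, SAHH2 and PHYB lost it without replicate 2 of the blue series' dark, and SAHH2 and CM1 without replicate 2 of red light. The calls of SAHH2 and CM1 were also lost with library totals in place of TMM factors. With edgeR on the libraries of the 2 colours alone no gene was called, and 1214 had a raw p under 0.05. DESeq2 run on all groups called 141 genes. With each of the 8 libraries left out in turn the count was 4 to 47 genes.

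Against white light, 14 genes (0.0608%) passed, 4 (0.0174%) with the larger value in blue and 10 (0.0435%) in white light. An unadjusted p under 0.05 was reached by 1880 genes (8.17%). In simulated counts the test against white light found 42% of log2 differences of 1 and 95% of those of 2. With 200 genes changed, it also made 14 false calls. PIL1 again had the larger value in blue light, with 2.89 and 2.55 CPM in white light and a difference of 2.36 ± 0.27 (adjusted p = 0.00506). CKX5, a cytokinin oxidase gene, fell less in blue light (difference 1.2 ± 0.20). On the other side, CHI had 46.8 and 30.4 CPM in blue light and 115 and 117 CPM in white light, a difference of -2.06 ± 0.33. UGT84A1, a glycosyltransferase gene, had 2.22 and 1.4 CPM in blue light and 44.3 and 42.0 CPM in white light. COX15, a gene for assembly of mitochondrial cytochrome oxidase, had 30.0 and 33.5 CPM in blue light and 82.7 and 79.6 CPM in white light, and its call held without each of the 8 libraries in turn. The calls of CKX5, CHI and UGT84A1 were lost without any 1 of the 4 libraries of 6 h white light and its dark, replicate 2 of blue light or replicate 2 of the blue series' 6 h dark, and those of CKX5 and UGT84A1 also without its replicate 1. The count was 2 to 21 with each library left out in turn and 0 with edgeR on the libraries of the 2 colours alone, where 2006 genes had a raw p under 0.05. DESeq2 called 189 genes. No flavonoid enzyme other than CHI passed against white light, and none against red light.

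**Figure D4:**
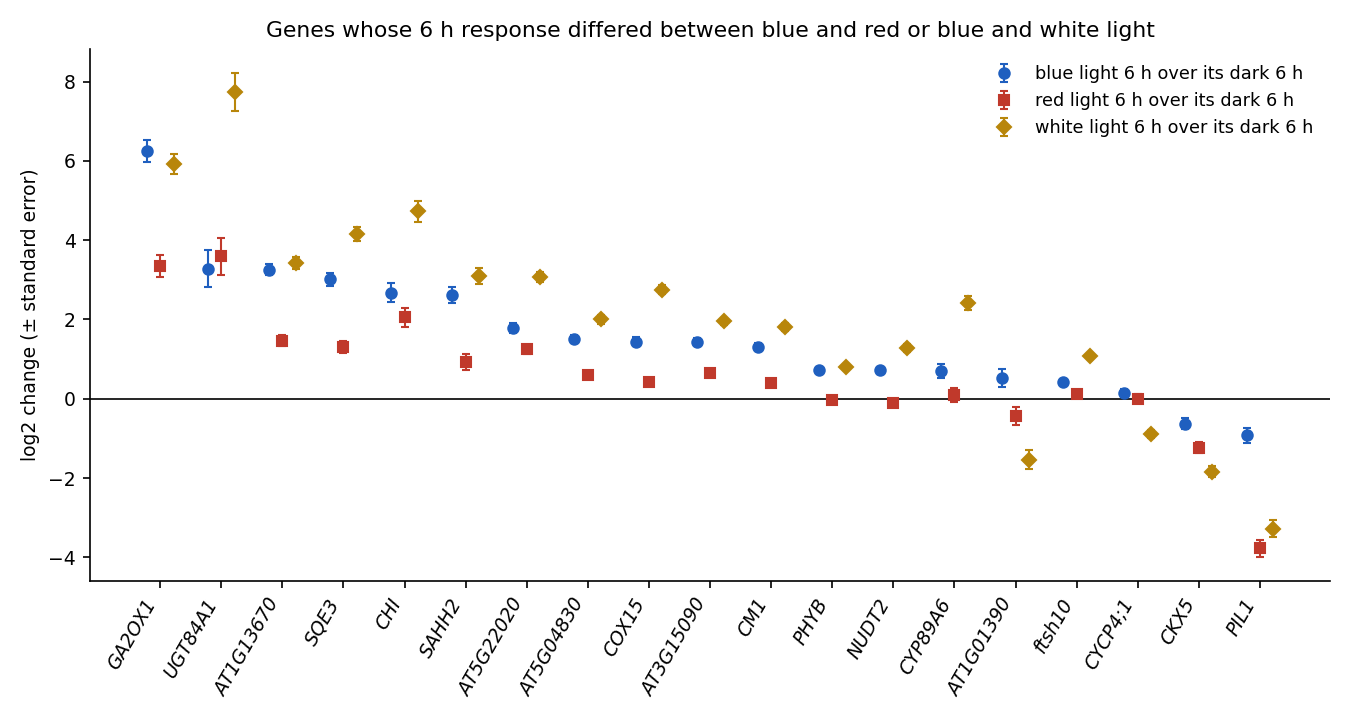
Log2 change (± standard error) after 6 h of blue, red or white light, each over its own 6 h dark libraries, for 19 genes with a called difference from red or white light and a mean of at least 10 CPM in some group (the 5 highest and 5 lowest values of each comparison). PIL1 at the right falls least in blue light, and GA2OX1 at the left rises by 6.25 in blue and 5.92 in white light against 3.35 in red light.

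Time in blue light changed the response of many more genes. After 1 h 8.13% of genes were called against 0 h. The change at 6 h (over 6 h dark) differed from that at 1 h (over 0 h) in 3553 genes (15.4%), with 2105 (9.15%) larger and 1448 (6.29%) smaller at 6 h. Without the libraries numbered 1 the count was 1028, without replicate 1 of 0 h it was 1738 and without replicate 2 of 6 h dark 1865. The late anthocyanin genes were late in time too: DFR had 151 and 66.8 CPM after 6 h of blue light, against 0.496 and 0.479 CPM after 1 h, a difference of the changes of 8.55 ± 1.21. LDOX, UGT79B1 and 5MAT differed by 7.60 ± 1.12, 7.02 ± 1.1 and 5.83 ± 0.75. Without replicate 2 of the 0 h libraries the differences of DFR, LDOX and UGT79B1 were not called. Photosystem core genes had a larger change at 6 h in 26 of 29 cases, light-harvesting genes in 17 of 21, and Calvin cycle and photorespiration genes in 22 of 31; none was smaller.

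Other genes, early regulators among them, had a smaller change at 6 h than at 1 h. PRR9, a clock gene, had 6.09 and 9.20 CPM after 6 h of blue light, against 157 and 216 CPM after 1 h, a difference of -5.20 ± 0.85. Of 22 clock genes 13 had a smaller change at 6 h and 1 a larger one, and the clock list's median was 0.31 at 6 h and 1.74 at 1 h. LNK3 had 3.97 and 5.15 CPM after 6 h, against 94.2 and 112 CPM after 1 h. BBX30 had 3.81 and 2.79 CPM after 6 h, against 17.5 and 15.5 CPM after 1 h, and 8 of the 21 HY5, B-box, GLK and GATA factors had a smaller change at 6 h. PORA had 21.9 and 23.7 CPM after 6 h, against 858 and 283 CPM after 1 h, so its fall was found at 6 h but not at 1 h (-0.62). Its difference of -4.56 ± 1.22 was not called without either blue light 6 h library, replicate 1 of 6 h dark, replicate 1 of blue light 1 h, either 0 h library or the libraries numbered 1. The difference of BBX30 was not called without replicate 2 of 6 h dark, replicate 2 of 0 h or the libraries numbered 1.

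**Figure D5:**
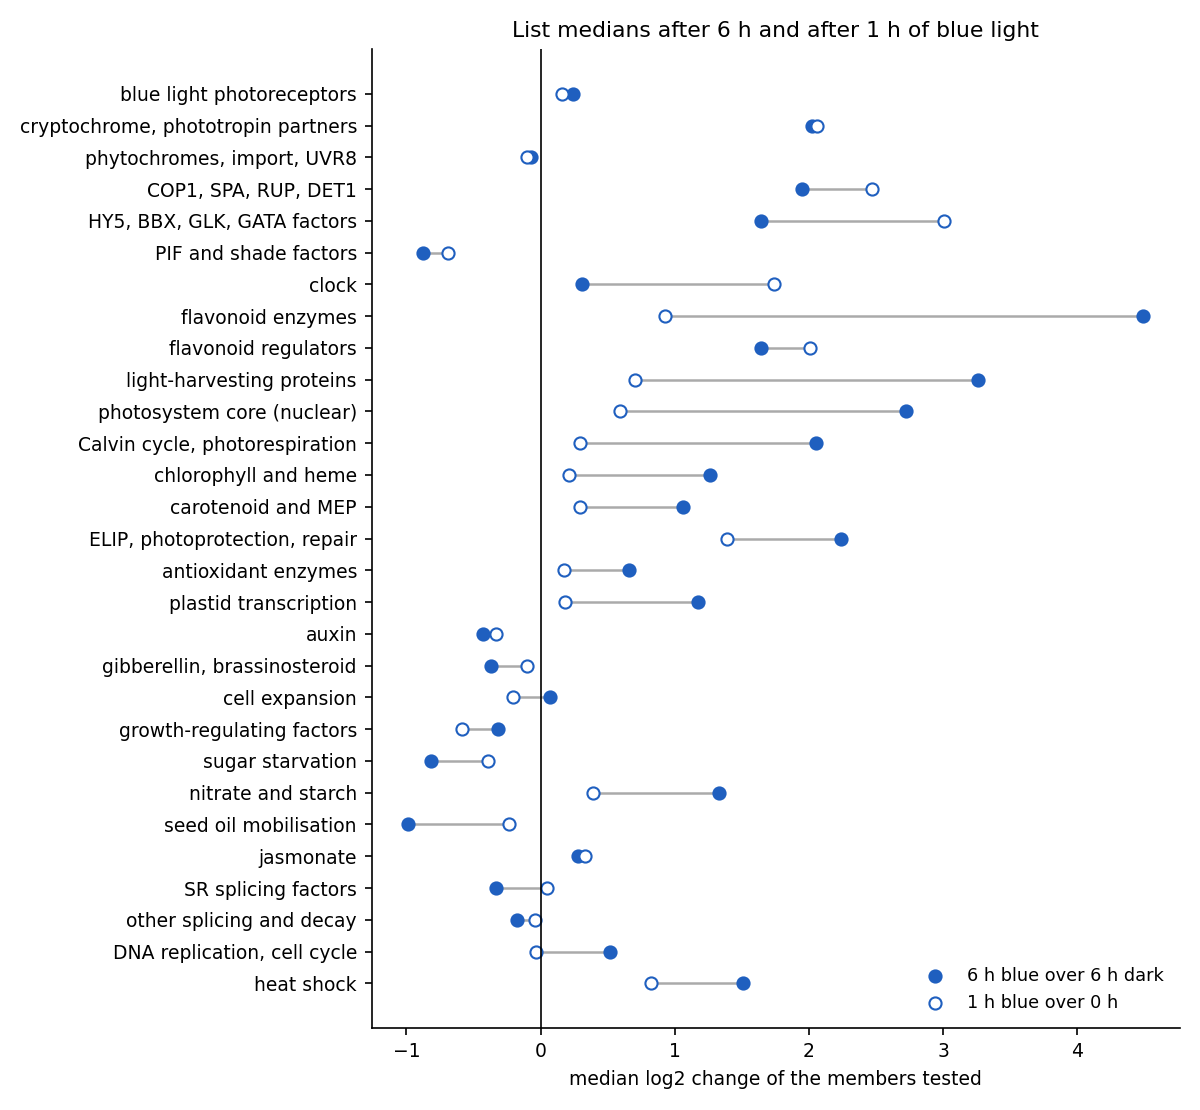
Median log2 change of each list's tested members after 6 h of blue light over 6 h dark (filled) and after 1 h of blue light over 0 h (open). The flavonoid enzyme list lies at 4.49 at 6 h and 0.92 at 1 h, and the clock list at 0.31 and 1.74.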

How the data were processed

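RNA-seq libraries of etiolated Col-0 seedlings were compared from a table of read counts per gene, which the authors deposited without normalization. The build is TAIR10, per the submitters' processing notes. How reads were aligned and counted, with which strand setting, and what became of reads shared by several genes is not given in the sources used here. Without a stated strand setting, overlapping genes cannot be told apart. The table gives no coordinates, so locus tags were matched to RefSeq's TAIR10.1 annotation (22844 of 23011 genes tested).

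Genes were filtered with edgeR 4.0.16 (filterByExpr, minimum count 10), which kept 99.99% of counts. TMM factors and quasi-likelihood F tests used 1 mean per group over all 22 libraries in 11 groups (11 residual degrees of freedom), run in R 4.3.3 with limma 3.58.1. Genes were called at a Benjamini-Hochberg adjusted p under 0.05 over all genes tested. Folds and log2 changes are edgeR's; CPM use TMM-scaled library sizes. The test was tried first on simulated counts with 200 genes changed by 1 or 2 on the log2 scale. For blue light against darkness it found 70% of changes of 1 and 100% of changes of 2, with 2 false calls.

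Total counts of 35000731 to 138804638 leave counting error small beside the spread between libraries except for genes under about 1 CPM. Named genes were the 10 largest and 10 smallest changes with a mean of at least 10 CPM and no overlap, up to 3 members of each of 32 lists by adjusted p, a fixed set of light signalling genes, and the 5 highest and 5 lowest called differences between responses among genes with a mean of at least 10 CPM in some group of the contrast. Other list members were picked as examples after their values were seen. Members and lists were chosen with earlier results of these data known. Alternatives were RLE factors, library totals, other filters, organelle genes left out, a replicate block, a log2 change of at least 1, the libraries of a contrast alone, single libraries left out, thinned counts, promoter windows of 150 bases and DESeq2 1.42.0.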

Additional observations from a re-analysis of the deposited data

Results flagged for a closer look

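Differences between the responses, each tested as a difference of log2 changes in edgeR, drew attention to the following values. Blue light differed from red light in 22 genes, from white light in 14 genes, and 6 h of blue light from 1 h in 3553 genes. Against red light the differences were 2.91 for GA2OX1, 2.85 for PIL1, 1.795 for AT1G13670, 1.71 for SQE3, 1.68 for SAHH2, 0.91 for AT5G04830, 0.90 for CM1, 0.82 for NUDT2, 0.79 for AT3G15090 and 0.75 for PHYB. Against white light they were 2.36 for PIL1, 2.05 for AT1G01390, 1.204 for CKX5, 1.02 for CYCP4;1, -0.65 for ftsh10, -1.29 for AT5G22020, -1.31 for COX15, -1.72 for CYP89A6, -2.06 for CHI and -4.455 for UGT84A1. Between 6 h and 1 h of blue light they were 8.55 for DFR, 7.60 for LDOX, 7.02 for UGT79B1, 5.835 for 5MAT, 5.79 for the GDSL lipase gene AT4G28780, -4.16 for BBX30, -4.56 for PORA, -4.96 for LNK3, -5.20 for PRR9 and -5.59 for BBX23. Groups of 2 libraries were too small for a test of single outlying samples.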

How the results depend on the processing

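Of 8597 genes called, 1185 (956 higher, 229 lower) passed against a log2 change of at least 1, 4810 (2799 higher, 2011 lower) with the 4 libraries alone, and 5158 (3440 higher, 1718 lower) without the blue libraries numbered 1. Library totals gave 5257 genes lower. With 1 library left out, the lone library being assumed to vary like the other groups, 5984 to 6889 were called, 3699 to 4262 higher and 2189 to 2964 lower. Differences from red light numbered 72 with the replicate block, 0 with the contrast's libraries alone, 4 without the libraries numbered 1, 141 in DESeq2 and 4 to 47 with 1 library left out. Differences from white light numbered 28 with the replicate block, 0 with the contrast's libraries alone, 189 in DESeq2 and 2 to 21 with 1 library left out. Differences between 6 h and 1 h numbered 1524 with the contrast's libraries alone, 1028 without the libraries numbered 1 and 1738 to 3594 with 1 library left out. CRY1 (-0.0676) and CRY2 (-0.0776) turned sign with library totals, and CRY2 ranged from -0.0354 without replicate 2 of blue light to 0.18 without replicate 1 of blue light; none of these was called. The cause of these shifts was not tested. Libraries with the same number in the blue series deviated together (correlations of 0.339 to 0.574), but the labels do not say what the number marks, so the block is given only here; with it 10122 genes were called (5921 higher, 4201 lower). The plastid share difference ranged from -0.0800 to -0.0190 percentage points and the mitochondrial one from -0.0753 to -0.0107 with 1 library left out. Depth limits genes near 0 in darkness, whose folds rest on a few reads.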
